A study of Saccharomyces cerevisiae with 6 samples.

Results

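FLO11, PGU1, TEC1, FLO8, MSS11, PHD1, SOK2, MGA1 and DIA1 are 9 genes of filamentous growth in budding yeast (Saccharomyces cerevisiae), and each had 1 probe set among the 5449 named genes on the array. They comprise 6 transcription factor genes and 3 genes that lie downstream of such factors or act in the growth form itself, FLO11, PGU1 and DIA1. The genes were chosen by their roles, from a list made with earlier values of the same comparison in view. Their changes and calls are therefore descriptions of these arrays and not independent tests. Transcript levels came from 6 Affymetrix arrays of wild-type yeast in mid-log phase. The treated group was 3 samples of cells grown for 3 h with 0.1 µM OGT2468, a compound named here only by this code. The control was 3 samples of cells grown for 3 h with the solvent DMSO, given as 0.1% in the design. The labels give neither the strain background, the mating type nor the ploidy.

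Filamentous growth is the form in which yeast cells elongate, stay attached to each other and grow into a solid surface. Haploid cells do so as invasive growth and diploid cells as pseudohyphae. A MAP kinase cascade that ends in the transcription factors Ste12 and Tec1, and a cyclic AMP pathway that ends in protein kinase A and the factor Flo8, both act on the promoter of FLO11. FLO11 encodes the cell surface flocculin through which cells hold on to each other and to surfaces.

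After OGT2468, 3 of the 9 genes were called lower and 1 was called higher, by limma at a Benjamini-Hochberg adjusted p under 0.05. FLO11 was 2.37-fold lower, PGU1 1.64-fold lower and TEC1 1.55-fold lower, while DIA1 was 2.04-fold higher. The other 5 genes, all of them transcription factor genes, did not pass. Of all 8968 tested probe sets 0.758% were called lower and 1.83% higher, and of the 5449 named genes 1.1% were called lower and 2.72% higher. The groups of arrays did not overlap for 5 of the 9 genes, 4 of them lower (FLO11, PGU1, TEC1 and PHD1) and 1 higher (DIA1). Among all named genes 16.4% were lower and 15.5% higher without overlap. The median log2 change of the 9 genes was -0.21, against -0.02 for all named genes. This median was the value of MGA1, a gene near background, and it lay between -0.41 (without OGT2468 replicate 2) and -0.053 (without DMSO replicate 1) in fits without 1 array, at -0.059 without OGT2468 replicate 3, -0.39 without DMSO replicate 2 and -0.13 without DMSO replicate 3.

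**Figure D1:**
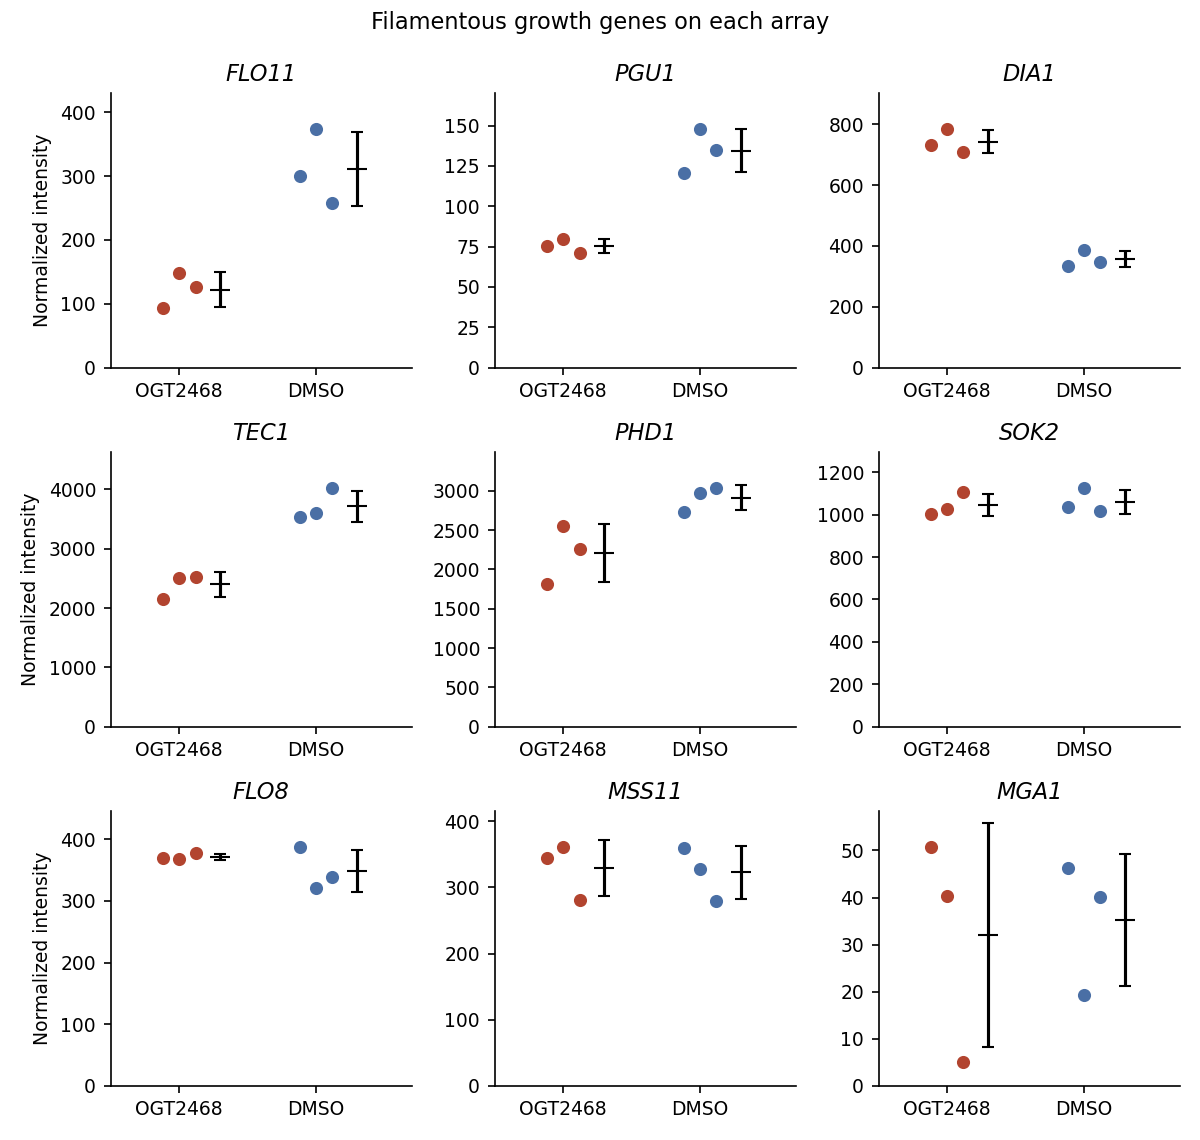
Normalized intensity (linear scale from 0, a scale of its own for each gene) of the 9 genes on the 3 OGT2468 arrays (red, left) and the 3 DMSO arrays (blue, right), with the mean and SD beside the points. FLO11, PGU1, TEC1 and PHD1 lie lower and DIA1 higher on every OGT2468 array than on any DMSO array, and the groups overlap for SOK2, FLO8, MSS11 and MGA1.

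The deposited values were probe set intensities on a linear scale, and arrays differed in brightness. The median intensity of the yeast probe sets lay between 691 and 842 on the OGT2468 arrays and between 786 and 1150 on the DMSO arrays (exact two-sided permutation test, p = 0.2, where 0.1 is the smallest p that 3 against 3 allow). Values were therefore quantile normalized, and changes are differences of log2(normalized intensity + 16), which understate the change of dim genes. Background, taken as the 98th percentile of probe sets for another species, was between 21.8 and 25.9 units, and 8 of the 9 genes were above it on all 6 arrays. Bulk RNA cannot tell fewer cells of one kind from less RNA per cell.

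Among the genes at the end of the pathway, FLO11 had the largest change of the 9. Its normalized intensity was 92.7, 148 and 126 on the OGT2468 arrays, against 301, 373 and 258 on the DMSO arrays. All 3 treated arrays were below all 3 control arrays, and the brightest treated array, replicate 2, was at 148 where the dimmest control was at 258. The deposited intensities before normalization showed the same separation, with 90.6, 132.6 and 102.1 in OGT2468 and 311.3, 332.6 and 352.3 in DMSO. The log2 change was -1.25 ± 0.23 (SE, n = 3 per group; limma adjusted p = 0.0339), the 15th lowest of the 8968 probe sets. Leaving out any 1 of the 6 arrays ended the call, with changes between -1.38 and -1.08 and adjusted p between 0.0564 and 0.127 in limma.

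PGU1 encodes a secreted endopolygalacturonase, which cuts pectin, and is a textbook target of Tec1 and Ste12. Its normalized intensity was 75.5, 79.7 and 71.1 on the OGT2468 arrays, against 121, 148 and 135 on the DMSO arrays. The treated arrays lay close together, and the groups were apart. Its log2 change was -0.72 ± 0.08 (SE, n = 3 per group; limma adjusted p = 0.015). PGU1 is dim, so this change depended on the pseudocount, at -0.82 with 1 and -0.51 with 64. The call held without DMSO replicate 1 or 2 and was lost without DMSO replicate 3 or any 1 OGT2468 array, where the limma adjusted p lay between 0.0512 and 0.0744.

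DIA1 encodes a protein of unknown function whose loss makes cells invade agar and form pseudohyphae more readily, and it changed in the opposite direction. Its normalized intensity was 733, 783 and 709.6 on the OGT2468 arrays, against 336, 386 and 347 on the DMSO arrays. The dimmest treated array was thus well above the brightest control, and the spread within each group was small beside the gap. The log2 change was 1.03 ± 0.07 (SE, n = 3 per group; limma adjusted p = 0.00318), the 28th highest of all probe sets tested. DIA1 kept its call without any 1 array, at 0.99 to 1.08, and lost it with no scaling between arrays, where its change was 0.77 and the limma adjusted p = 0.102.

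Of the 6 transcription factor genes, TEC1 alone was called. Tec1 is a DNA-binding factor of the TEA family that works with Ste12 at filamentation genes. Its normalized intensity was 2155, 2510.1 and 2526 on the OGT2468 arrays, against 3534, 3598 and 4019 on the DMSO arrays. The groups did not overlap, and the arrays of each group lay within about the same spread, with an SD of 0.13 in OGT2468 and 0.10 in DMSO on the log2 scale. The log2 change was -0.63 ± 0.09 (SE, n = 3 per group; limma adjusted p = 0.0288). As for FLO11, the call ended without any 1 of the 6 arrays, with changes between -0.67 and -0.55 and a limma adjusted p between 0.0715 and 0.0919. The calls of FLO11 and TEC1 were also lost with a pseudocount of 1, at -1.35 (limma adjusted p = 0.0762) and -0.63 (limma adjusted p = 0.0603).

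PHD1 and SOK2 encode related DNA-binding proteins of the APSES family with opposite known roles, since Phd1 promotes pseudohyphal growth when overproduced and Sok2 restrains it. The normalized intensity of PHD1 was 1812, 2552 and 2257 on the OGT2468 arrays, against 2736, 2974 and 3032 on the DMSO arrays. No treated array reached a control array, but the treated arrays were widely spread, with an SD of 0.25 in OGT2468 and 0.08 in DMSO on the log2 scale. The log2 change of PHD1 was -0.41 ± 0.15 and did not pass (SE, n = 3 per group; limma adjusted p = 0.206). It passed under 1 alternative, scaling on the hybridization controls, at -0.76 (limma adjusted p = 0.0267).

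SOK2 was at 1005, 1026 and 1106 on the OGT2468 arrays, against 1038, 1124 and 1018 on the DMSO arrays (normalized intensity), and the groups overlapped throughout. Its log2 change was -0.02 ± 0.06 (SE, n = 3 per group; limma adjusted p = 0.926). In the deposited intensities the SOK2 groups had been apart, with 1001.2, 906.3 and 899.3 in OGT2468 and 1089.4, 1041.6 and 1364 in DMSO, a gap that the normalization of array brightness removed. With no scaling the log2 change of SOK2 was -0.30, beside a median of -0.27 over all named genes.

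FLO8 and MSS11 encode activators that act together at the FLO11 promoter, Flo8 downstream of protein kinase A. FLO8 was at 369, 368 and 377 on the OGT2468 arrays, against 387, 321 and 339 on the DMSO arrays (normalized intensity). The treated arrays lay inside the range of the controls. MSS11 was at 345, 361 and 281 on the OGT2468 arrays, against 360.1, 328 and 280.2 on the DMSO arrays (normalized intensity), so that both groups covered nearly the same range. The log2 changes were 0.09 ± 0.08 for FLO8 and 0.03 ± 0.15 for MSS11 (SE, n = 3 per group; limma adjusted p = 0.648 and 0.946), and both signs turned to -0.17 and -0.23 with no scaling and to -0.21 and -0.27 with scaling on the hybridization controls. In the reference strain S288C a nonsense mutation interrupts FLO8, and the RefSeq gene table for that strain lists FLO8 as a pseudogene. A probe set reads transcript and not an intact reading frame, and the labels do not say which FLO8 allele these cells carry.

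MGA1, which encodes a protein related to heat shock transcription factors and known as a regulator of filamentous growth, was close to background. Its normalized intensity was 50.7, 40.3 and 5.1 on the OGT2468 arrays, against 46.2, 19.3 and 40.1 on the DMSO arrays. It was above background on 2 of 3 arrays of each group, and OGT2468 replicate 3 and DMSO replicate 2 were the exceptions. The log2 change was -0.21 ± 0.58 (SE, n = 3 per group; limma adjusted p = 0.869) and turned to 0.31 without OGT2468 replicate 3.

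**Figure D2:**
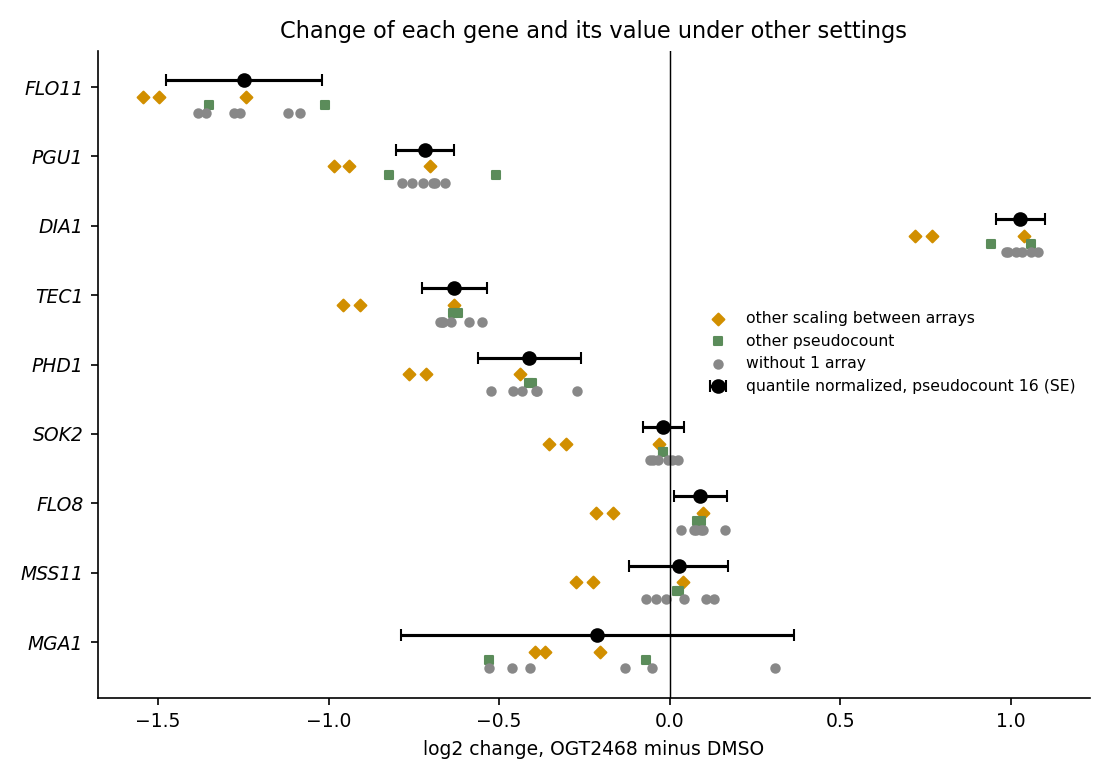
The log2 change of the 9 genes, OGT2468 minus DMSO, with its SE (black), and the values under other scalings between arrays, other pseudocounts and fits without 1 array. FLO11, PGU1, TEC1 and PHD1 stay below 0 and DIA1 above 0 under each setting drawn, while SOK2, FLO8, MSS11 and MGA1 fall on both sides of 0.

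The scaling between arrays shifted the changes of most genes together. The median over all named genes shifted by -0.25 with no scaling and by -0.30 with scaling on the hybridization controls. Relative to the median named gene, FLO11 was at -1.23 in the quantile-normalized data, -1.22 with no scaling and -1.22 with control scaling. DIA1 was at 1.05, 1.04 and 1.04 on the same relative scale, PGU1 at -0.70, -0.67 and -0.66, TEC1 at -0.61, -0.63 and -0.64, and PHD1 at -0.39, -0.44 and -0.44. These positions differed by less than the SE of each change.

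The other genes of the filamentation pathways were given as 5 lists of 73 genes, written by function, of which 70 were measured. Of these 70 genes 2 rose, none fell and 68 did not pass in limma over all probe sets (7 were higher and 8 lower at an unadjusted p under 0.05), and their median log2 change was 0.01. Among all named genes 2.72% rose and 1.1% fell, and at an unadjusted p under 0.05 there were 21.0%, with 10.9% higher and 10.1% lower, so the share of these 70 genes that rose was near that of all named genes. All of the changes lay between -0.39 and 0.56, whereas the middle 90% of all named genes lay between -0.31 and 0.34.

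The MAP kinase branch runs from the mucin sensor Msb2 through the kinases Ste20, Ste11, Ste7 and Kss1 to Ste12. None of the 15 measured genes of its list, which also holds HKR1, passed in limma (3 at an unadjusted p under 0.05). Their median was -0.01. STE12 was at 1622, 1921 and 1822 on the OGT2468 arrays, against 2291, 2383 and 2337 on the DMSO arrays (normalized intensity). The groups were apart, and the log2 change of -0.39 ± 0.07 did not pass (SE, n = 3 per group; limma adjusted p = 0.0797). STE12 was called lower under 4 of the 14 alternatives, at -0.73 with scaling on the hybridization controls (limma adjusted p = 0.0267), -0.38 with a pseudocount of 64 (0.0225), -0.38 with named probe sets alone (0.0220) and -0.39 with only probe sets above background (0.0170), and over all 14 its adjusted p lay between 0.0170 and 0.212. MSB2, at 3101, 3288 and 3448 in OGT2468 and 2697, 2583 and 2728 in DMSO, was also apart in the other direction, with a change of 0.29 ± 0.05 (limma adjusted p = 0.0998). MSB2 was called higher under the last 3 of these alternatives, with limma adjusted p between 0.0242 and 0.0306, and its change turned to -0.04 with scaling on the hybridization controls. KSS1, the kinase gene of this branch, had a change of -0.27 ± 0.20, and DIG1, which encodes an inhibitor of Ste12, had one of -0.05 ± 0.06.

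None of 15 measured genes of the cyclic AMP and protein kinase A branch passed in limma (4 at an unadjusted p under 0.05), with a median change of 0.01 and a range from -0.32 to 0.25. RAS2, a GTPase gene that stimulates adenylate cyclase, was at -0.10 ± 0.07. TPK2, which encodes the protein kinase A subunit that activates FLO11 through Flo8, was at 0.01 ± 0.10, a value that turned to -0.28 with no scaling. Of 17 other regulators of FLO11 and filamentation none passed either (3 at an unadjusted p under 0.05), and the median was 0.0013. The repressor genes SFL1 and NRG1 had changes of 0.01 ± 0.06 and 0.08 ± 0.18, which turned to -0.28 and -0.18 with no scaling.

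None of the 3 other flocculin genes measured passed in limma, and none had an unadjusted p under 0.05. FLO1 was at 54.5, 94 and 66.3 on the OGT2468 arrays, against 93.7, 74.4 and 88.6 on the DMSO arrays (normalized intensity), with a log2 change of -0.23 ± 0.21. FLO10 was at 101.5, 101.6 and 109 on the OGT2468 arrays, against 106, 128 and 84 on the DMSO arrays, with a change of -0.01 ± 0.16. Both groups overlapped in each case, and neither gene passed (limma adjusted p = 0.577 for FLO1 and 0.979 for FLO10). The FLO9 probe set matches several sequences, so its change of -0.01 cannot be assigned to 1 flocculin gene. Whether the change of FLO11 differed from those of the other flocculin genes was not tested.

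Among 20 measured effectors of filamentation, DFG5 and SVS1 rose and none fell, where 2.72% of all named genes rose and 1.1% fell, and the median was 0.08. DFG5, which encodes a membrane-anchored protein needed for filamentous growth and cell wall assembly, was at 3153, 3272 and 3261 on the OGT2468 arrays, against 1955, 2292 and 2306 on the DMSO arrays (normalized intensity). SVS1, a cell wall protein gene, was at 5338, 5053 and 5689 in OGT2468 and 3872, 3949.9 and 3907 in DMSO. The log2 changes were 0.56 ± 0.08 for DFG5 and 0.45 ± 0.05 for SVS1 (SE, n = 3 per group; limma adjusted p = 0.0288 and 0.0285). Both calls were lost without any 1 array, with no scaling and with scaling on the hybridization controls or the upper quartile. They were also lost with a pseudocount of 1 and with the replicate number as a block. Each gene was thus called in 3 of the 14 alternatives, and its change stayed above 0 in all of them. The G1 cyclin gene CLN1 (0.37 ± 0.08) and the ammonium permease gene MEP2 (0.17 ± 0.07) did not pass, though CLN1 was called higher under the same 3 alternatives as MSB2 (limma adjusted p between 0.0255 and 0.0368), and MEP2 turned to -0.07 with no scaling.

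**Figure D3:**
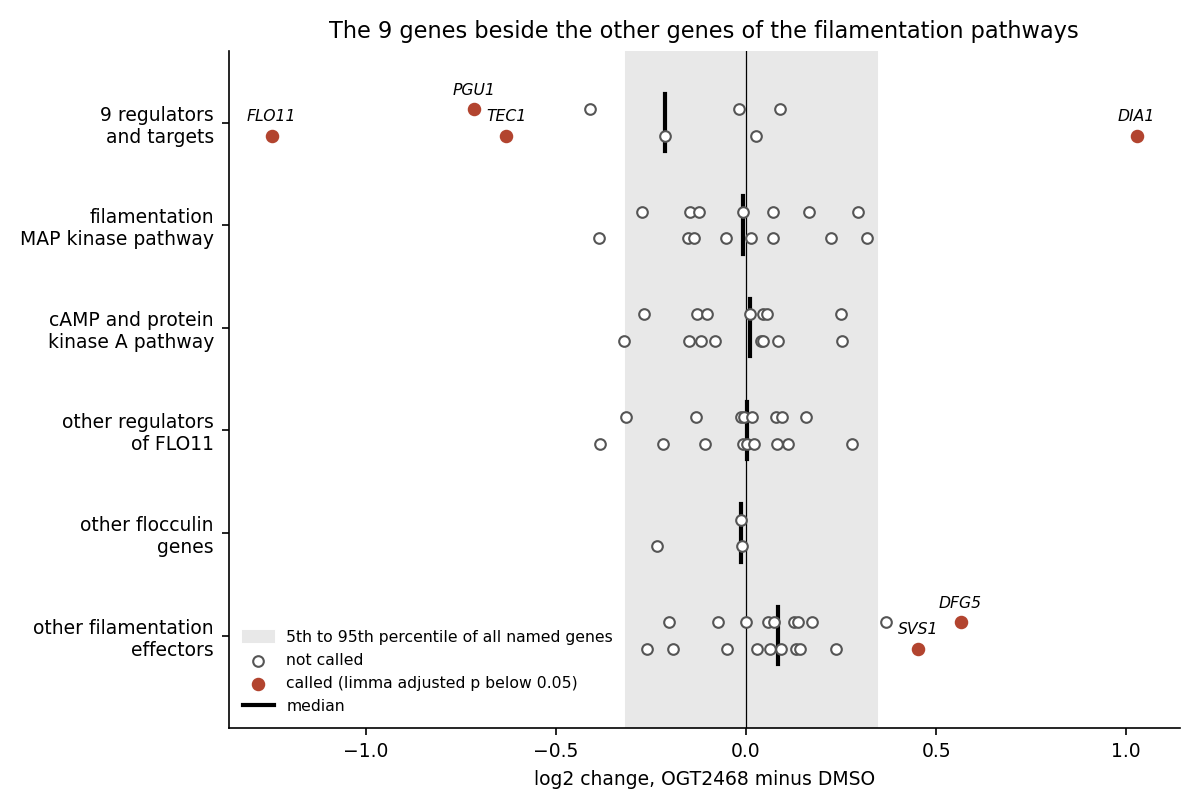
The log2 change, OGT2468 minus DMSO, of the 9 genes and of the other measured genes of the filamentation pathways, 1 circle per gene, with called genes filled and named, the median of each list as a bar, and the 5th to 95th percentile of all named genes shaded (-0.31 to 0.34). The 70 other pathway genes range from -0.39 to 0.56. FLO11 at -1.25, PGU1 at -0.72, TEC1 at -0.63 and PHD1 at -0.41 lie below this range, and DIA1 at 1.03 lies above it. The 9 genes and the lists were chosen with earlier results of these data known, so the contrast is a description.

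Ste12 serves mating as well as filamentation, and markers of both mating types were read beside these genes. Of the a type, 3 of 7 measured markers fell, STE2 (-1.09), MFA2 (-1.06) and STE6 (-0.61), and of the alpha type 1 of 4 fell, MF(ALPHA)2 (-0.35), where 1.1% of all named genes fell. The other 7 did not pass, though each had a change below 0. The largest of these were ASG7 at -0.84 (limma adjusted p = 0.106) and SAG1 at -0.49 (limma adjusted p = 0.0663). The smallest were MF(ALPHA)1 at -0.08 (limma adjusted p = 0.570) and BAR1 at -0.03 (limma adjusted p = 0.966). At an unadjusted limma p under 0.05, 4 of the 7 a markers and 3 of the 4 alpha markers were lower, where 10.1% of all named genes were. The call of STE2 held without any 1 array, and that of MFA2 was lost in 3 of the 6 such fits. That of STE6 was lost in 5 and that of MF(ALPHA)2 in 6. Over all 14 alternatives STE2 was called in 14, MFA2 in 10, STE6 in 7 and MF(ALPHA)2 in 3. MF(ALPHA)2, with a limma adjusted p of 0.0494, was at -0.23 with scaling on the upper quartile (limma adjusted p = 0.470). The summed normalized intensity of the a markers was 403 to 419 in OGT2468 and 755 to 896 in DMSO, and that of the alpha markers was 29747.5 to 32161 in OGT2468 and 36653 to 37860.1 in DMSO. No marker was at 0, though ASG7 and AGA2 were at or below background on all 3 OGT2468 arrays. Each alpha marker was brighter than each a marker on every array, in both groups, while the labels do not give the mating type. The part of mating type in the changes of the 9 genes was not tested.

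The genes whose pattern over the 6 arrays came nearest to each called gene were found by the Euclidean distance between mean-centred log2 values. Nearest to FLO11 were YDR124W (distance 0.32), the alpha factor receptor gene STE2 (0.41) and the agglutinin anchor gene AGA1 (0.42). Nearest to PGU1 were the vacuolar aminopeptidase gene APE1 (0.10), IRC10 (0.17) and STE6, which encodes the exporter of a factor (0.20). TEC1 was nearest to the cell wall protein gene TIP1 (0.14), BOP3 (0.15) and FAR1 (0.16), whose product arrests the cell cycle in response to pheromone. DIA1 was nearest to MCD4 (0.13), which acts in the synthesis of membrane anchors of proteins, the disulfide isomerase gene MPD1 (0.15) and YET2 (0.19). These 12 genes share the arrays and the direction of the change with the gene they stand beside, so the distances only describe them.

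Genes beside the 9 on the chromosome were also read. In the RefSeq table of the R64 assembly the 9 genes have 18 direct neighbours among protein-coding genes, of which 14 were measured. Noncoding RNA genes were passed over. None of the 14 passed in limma, where 2.72% of all named genes were called higher and 1.1% lower. At an unadjusted p under 0.05 there were 3, SPO20, MIS1 and GLE2 (before FLO8), where 21.0% of all named genes were. The groups of these 3 did not overlap, where 15.5% of all named genes were higher and 16.4% lower without overlap. The changes of the 14 lay between -0.55 (SPO20, after SOK2) and 0.26 (INP2, before MSS11), with a median of 0.02. DAL5 and YJR154W, on either side of PGU1, had changes of 0.01 ± 0.08 and 0.09 ± 0.18. UBC4 and MIS1, on either side of TEC1, had changes of 0.02 ± 0.05 and -0.20 ± 0.05, and the groups of MIS1 did not overlap (limma adjusted p = 0.206). Only 1 neighbour each was measured for FLO11, YIR018C-A at 0.16 ± 0.18, and for DIA1, YMR315W-A at 0.16 ± 0.22.

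**Figure D4:**
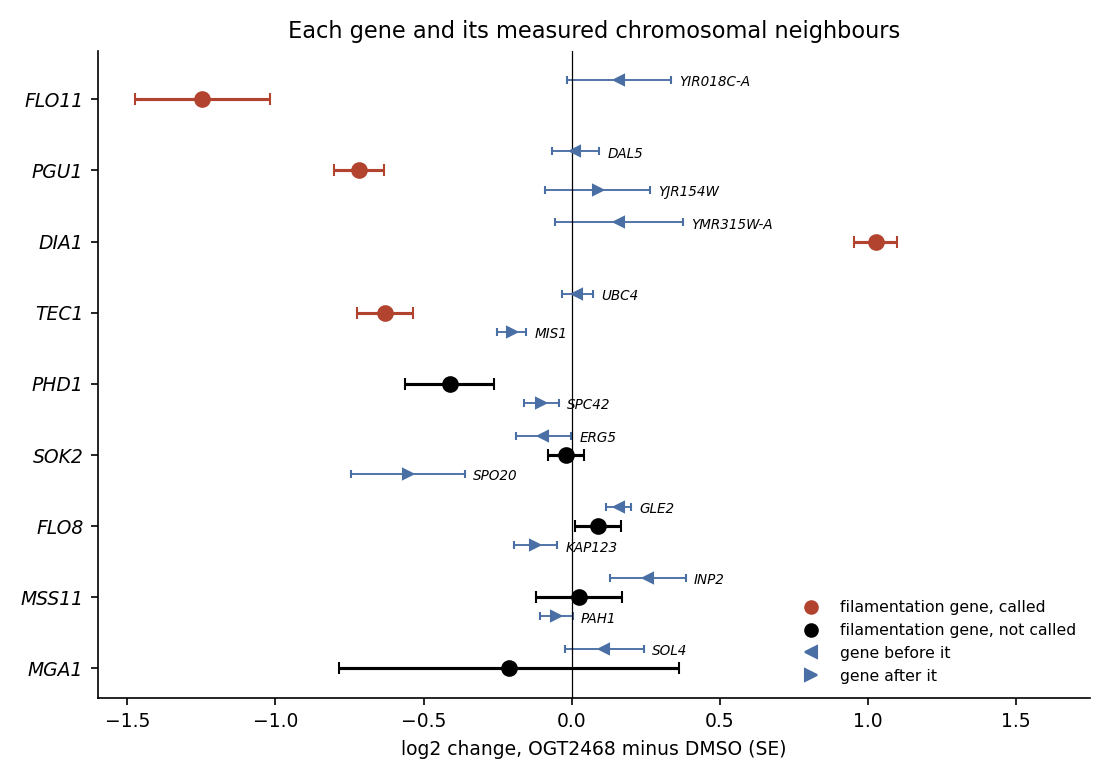
The log2 change of each of the 9 genes (circles, red where called) and of the measured protein-coding genes directly before and after it on the chromosome (triangles), OGT2468 minus DMSO, with SE. The 14 measured neighbours lie between -0.55 and 0.26, inside the span from FLO11 at -1.25 to DIA1 at 1.03.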

How the data were processed

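Biotin-labelled total RNA of 6 yeast samples went onto 1 Affymetrix array each, per the labels' protocols, and samples were grouped and numbered by their titles. The authors deposited linear intensities, 1 for each probe set on each array. The submitters' processing notes name GCRMA, but the deposited intensities are not on its log2 scale and differ in distribution between arrays. Further steps are not given in the sources used here. No 2 arrays were identical.

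Of 10928 probe sets, 5498 matched 1 gene of the R64 table through the platform annotation, 3470 had no name here, and 1747 of another species and 213 controls were left out. The 8968 others, with and without a name, were quantile normalized, 16 was added, and log2 was taken. Of these 8968, 5479 were above background on all arrays of at least 1 group. Of the named probe sets 95.6% to 97.1% were above it on each array, so most of those without a name were not. The groups were compared in limma 3.58.1 (lmFit and eBayes in R 4.3.3) without covariates. The p-values were adjusted by Benjamini-Hochberg over all 8968, at 0.05. With named probe sets alone 326 were called higher and 203 lower, against 164 and 68 over all 8968. The SE is that of the difference between group means, before moderation. The steps were tested on simulated data. The number of arrays, 3 per group, limits the precision. The design text calls the samples biological but names no separate cultures, so p-values measure the spread between these samples.

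The 9 genes and the lists were chosen, and the naming rule was set, with earlier results of these data known. Named were the 9 genes, up to 4 called genes per list, 13 fixed pathway genes and the 3 nearest genes to each called one, and the neighbours were named after their values were seen. The alternatives were 3 other scalings, pseudocounts of 1 and 64, 2 narrower sets of probe sets, the replicate number as a block, and fits without each array.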

Additional observations from a re-analysis of the deposited data

How the results depend on the processing

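Over all tested probe sets 164 were higher and 68 lower in OGT2468, and the counts moved to 22 and 44 with no scaling between arrays, 32 and 118 with control scaling (on the hybridization controls), 292 and 187 with a pseudocount of 64, 326 and 203 with named probe sets alone, and 374 and 244 with only probe sets above background. Higher calls were 70.7% of all calls, against 33.3% with no scaling and 21.3% with control scaling. Without 1 array the counts were 61 to 91 higher and 28 to 40 lower. Of the 9 genes, 1 was called higher and 3 lower. With no scaling none was higher (DIA1 lost its call), with a pseudocount of 1 a single gene, PGU1, was lower, and without 1 array 0 to 1 were lower and 1 was higher. Of the other 70 pathway genes 2 were higher and 0 lower. With no scaling, scaling on the upper quartile or a pseudocount of 1, 0 were higher, and with control scaling 0 were higher and 2 lower. With a pseudocount of 64 or with named probe sets alone 5 were higher and 4 lower, and with only probe sets above background 6 and 5. Without any 1 array 0 were higher. Only the 8 genes other than MGA1 could be tested among probe sets above background, and no gene had a further probe set to try.

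The labels do not say whether equal replicate numbers pair the arrays, and the groups were compared without pairing. Deviations of equally numbered arrays from their group means correlated at 0.01 to 0.06, under the limit of 0.1. Of 6 arrays 5 correlated best with their own number. These 6 comparisons reuse the same correlations, so they cannot decide whether the arrays were paired. With the replicate block 27 probe sets were higher and 14 lower, of the 9 genes 1 (DIA1) was higher and 0 lower, and of the other pathway genes 0 were higher.

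Over 27 named genes and 14 alternatives, 269 values kept direction and call status, 66 lost a call, 11 gained one and 31, all of genes that had no call, turned direction. The 269 include genes without a call that stayed so, and only called genes could lose one. Of the called genes, STE2 kept its call in 14 of the 14 alternatives, DIA1 in 13, MFA2 in 10, PGU1 in 9 and STE6 in 7. FLO11 and TEC1 kept theirs in 6 each, and DFG5, SVS1 and MF(ALPHA)2 in 3 each. With no scaling FLO8 was at -0.17, MSS11 at -0.23, TPK2 at -0.28, SFL1 at -0.28, NRG1 at -0.18 and MEP2 at -0.072, and with control scaling they were at -0.21, -0.27, -0.33, -0.33, -0.23 and -0.12, and MSB2 at -0.036. With scaling on the upper quartile TPK2 was at -0.011 and SFL1 at -0.0080. Some fits without 1 array turned the direction of MSS11, SOK2, MGA1, TPK2, SFL1, NRG1 and FLO10. Over all 6 such fits MSS11 lay at -0.068 to 0.13, SOK2 at -0.059 to 0.023 and MGA1 at -0.53 to 0.31. TPK2 lay at -0.043 to 0.10, SFL1 at -0.017 to 0.061, NRG1 at -0.10 to 0.20 and FLO10 at -0.14 to 0.12. Apart from the shift of all genes with scaling, the cause of these differences was not tested. Dim genes such as MGA1 and PGU1 limit what these arrays show.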
